A study of Mus musculus with 2 samples.

Results

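The 10 genes described here belong to 2 stress programmes: 8 targets of the transcription factor NRF2 (Hmox1, Nqo1, Gclc, Gclm, Txnrd1, Srxn1, Slc7a11 and Gsr) and 2 metallothioneins (Mt1 and Mt2). They were chosen by gene symbol among the 22609 gene rows of both count tables, and all 10 were found. The cells were TM4, an established mouse Sertoli cell line, transfected with either miR-471-5p mimic or scramble, and 48 h later RNA was recovered with an antibody against Ago2, the Argonaute protein loaded with miRNAs. Both cultures were grown in DMEM with FBS. There was 1 mimic library and 1 scramble library, with 18628310 and 18717225 reads on genes. With 1 library per group no difference has a replicate check, no p-value is given, and every interval below covers counting error only.

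NRF2 is held in the cytoplasm by KEAP1, which hands it to the CUL3 ubiquitin ligase for degradation. When electrophiles or oxidants modify KEAP1, NRF2 accumulates, pairs with a small MAF protein and binds antioxidant response elements, a motif that the repressor BACH1 also occupies until heme displaces it. Metallothioneins are small cysteine-rich proteins that bind zinc and copper, and their genes are switched on by the zinc-sensing factor MTF1 through metal response elements and by other stress signals. In the seminiferous epithelium, Sertoli cells take up apoptotic germ cells and break down what they contain.

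The miRNA in the mimic was miR-471-5p, shown because its seed defines the matches searched in the 10 mRNAs. Its mature sequence is given by RefSeq (GRCm38.p6, chrX:66792634-66792655, minus strand) with the seed, bases 2 to 8, in capitals.

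miR-471-5p: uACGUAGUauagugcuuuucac

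The mRNA letters that pair with bases 2 to 7 of the miRNA, CTACGT (a 6mer match), were searched in the 5′-UTR, coding region and 3′-UTR of every annotated coding transcript of the 10 genes (GENCODE M21, GRCm38). None of the 3′-UTRs held a 6mer match, and the longest ones ran from 141 nucleotides in Mt2 to 7364 in Slc7a11. By comparison, 5.82% of the 19781 protein-coding genes with an annotated 3′-UTR held one in the longest 3′-UTR. Mt1, Mt2 and Hmox1, the 3 members with the largest differences, had no match in any region. In coding regions Gclc had 1 match and Slc7a11 had 2, of which only the first in Slc7a11 is followed by A (a 7mer-A1 match). These 3 coding sites are shown with the 6mer in capitals. The Gclc site lies in exon 8 of 16 (chr9:77785785-77785790, plus strand), and the Slc7a11 sites lie in exon 7 of 12 (chr3:50384114-50384119, minus strand) and exon 9 (chr3:50381057-50381062).

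Gclc exon 8: attttaccgaggCTACGTgtcagacattga
Slc7a11 exon 7: catcacagtgggCTACGTactgacaaacgt
Slc7a11 exon 9: ctccaggttattCTACGTcgcatctcgaga

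The reads of the metallothioneins were much more numerous in the Ago2 IP of mimic-transfected cells, those of Hmox1 were more numerous by a smaller factor, and most of the other NRF2 targets were near parity. RNA input to the pull-down was not analysed here, so for all genes below more mRNA in the cells and more mRNA bound by Ago2 cannot be told apart. Of the 10 members, 3 were higher in the mimic library by at least 2-fold (Mt1, Mt2 and Hmox1), 0 were lower by 2-fold and 7 lay between. Among all 12186 genes with at least 20 reads over both libraries, 3.96% were higher by 2-fold (483 genes) and 2.95% were lower (359 genes). The median log2 ratio of mimic to scramble was 0.09 over the 10 members and 0.07 over the 8 NRF2 targets. Over all tested genes the median was within 0.01 of 0 and the 5th and 95th percentiles were -0.79 and 0.90. All 10 members had reads well above the count minimum in both libraries, from 81 and 103 in Slc7a11 upward. Together they took 42748 reads with mimic and 11234 with scramble. Mt1 and Mt2 made up 68.7% of the member reads with mimic and 26.7% with scramble.

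**Figure D1:**
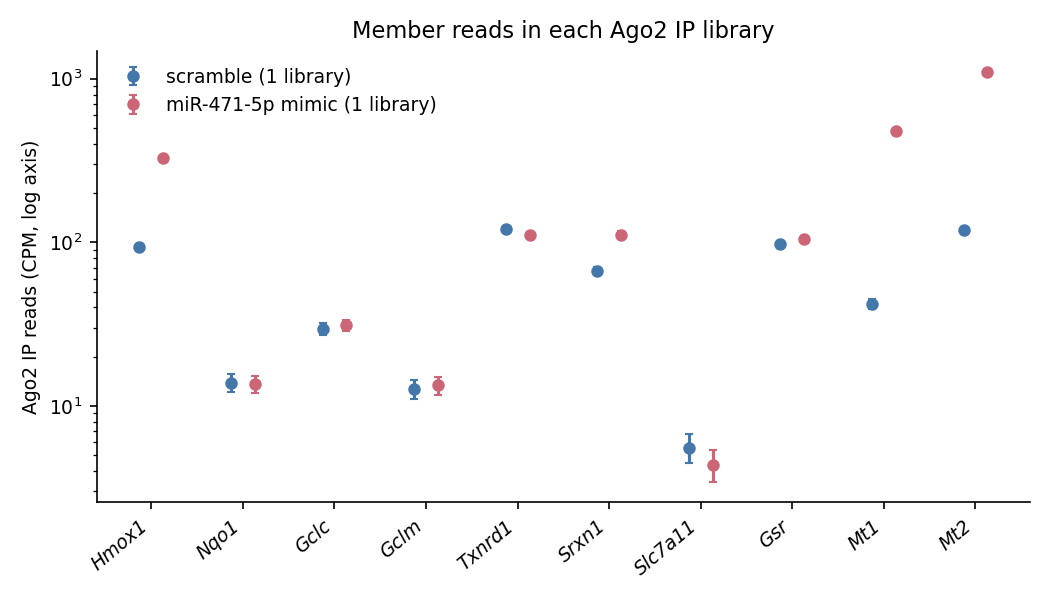
Ago2 IP reads of the 10 members in CPM (counts scaled to the library size after TMM, log axis), 1 point per library with exact 95% Poisson intervals, blue for scramble and red for miR-471-5p mimic. Mt1, Mt2 and Hmox1 are clearly apart between the libraries, Srxn1 less so, and the intervals of Nqo1, Gclc, Gclm, Gsr and Slc7a11 overlap.

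Mt1 and Mt2 encode the widely expressed metallothioneins and lie side by side on chromosome 8, Mt2 from 94172664 to 94173568 and Mt1 from 94179082 to 94180327 (GRCm38, plus strand). Mt1 had 8913 reads with mimic and 781 with scramble, 477 and 41.8 CPM (counts scaled to the library size after TMM). The mimic library was therefore the high one for Mt1, by 11.4-fold (95% interval 10.6 to 12.3). Mt2 had 20458 reads with mimic and 2220 with scramble, 1095 and 119 CPM. The difference for Mt2 was 9.21-fold (95% interval 8.82 to 9.63), so both genes were separated by far more than counting error. On the log2 scale the ratios were 3.51 for Mt1 and 3.20 for Mt2, and only 12 and 16 of the tested genes had larger ones. By number of reads, Mt2 was the 47th gene in the mimic library and the 2273rd in the scramble library. Among the 149 tested genes with at least as many reads as Mt2 over both libraries, 0 had a larger log2 ratio, and among the 729 with at least as many as Mt1 there were also 0. The proportions of the pair were not identical in the libraries, with 2.30 Mt2 reads per Mt1 read in the mimic library (95% interval 2.24 to 2.35) and 2.84 in the scramble library (95% interval 2.62 to 3.09).

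The other members of the metallothionein family were not detected. Mt3 and Mt4, whose expression is known mainly from brain and from stratified epithelia, lie next to Mt2 and had 0 reads in both libraries. On the unscaled library totals, 3 reads correspond to 0.161 CPM with mimic and 0.16 with scramble. The coding regions of Mt1 and Mt2, of 186 nucleotides each, were identical at 148 positions (79.6%). None of the 500 stretches of 50 nucleotides in the main Mt1 transcript, and none of the 462 in Mt2, occurred in a transcript of another GENCODE gene. Reads of that length would therefore tell the pair apart, although the read length is not given in the sources used here. The genes around the pair, looked at after its values were known, were near parity in most cases. Bbs2, beyond Mt4, had 635 and 583 reads in the mimic and scramble libraries (log2 ratio 0.12). Nup93, on the other side, had 3747 and 4080 (log2 ratio -0.12). Farther out, Herpud1 had a log2 ratio of -0.18, Ogfod1 of -0.49, Nlrc5 of 0.68 and Nudt21 of 0.67, so none of the tested genes within 6 coding genes of the pair reached 2-fold.

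Metallothionein mRNAs are short, and in these libraries the log2 ratio followed transcript length. The main (APPRIS principal) transcripts of Mt1 and Mt2 have 549 and 511 nucleotides. The 12073 tested genes with an annotated length were divided into 10 length classes of equal size. In the shortest class, up to 1270 nucleotides, the median log2 ratio was 0.44 and 10.1% of genes were higher by 2-fold, whereas in the longest class the median was -0.25 and 1.16% were. Of the 1208 genes in the shortest class, 2 had a larger log2 ratio than Mt1 and 4 a larger one than Mt2. Less the median of their class, the log2 ratios were 3.07 for Mt1 and 2.76 for Mt2, still past 2-fold. On this scale the median over the 10 members was 0.20. Among the 139 tested genes with a transcript of at most 600 nucleotides, the median log2 ratio was 0.59 and 2 genes exceeded Mt2. The part of length in the metallothionein ratios was not tested further.

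**Figure D2:**
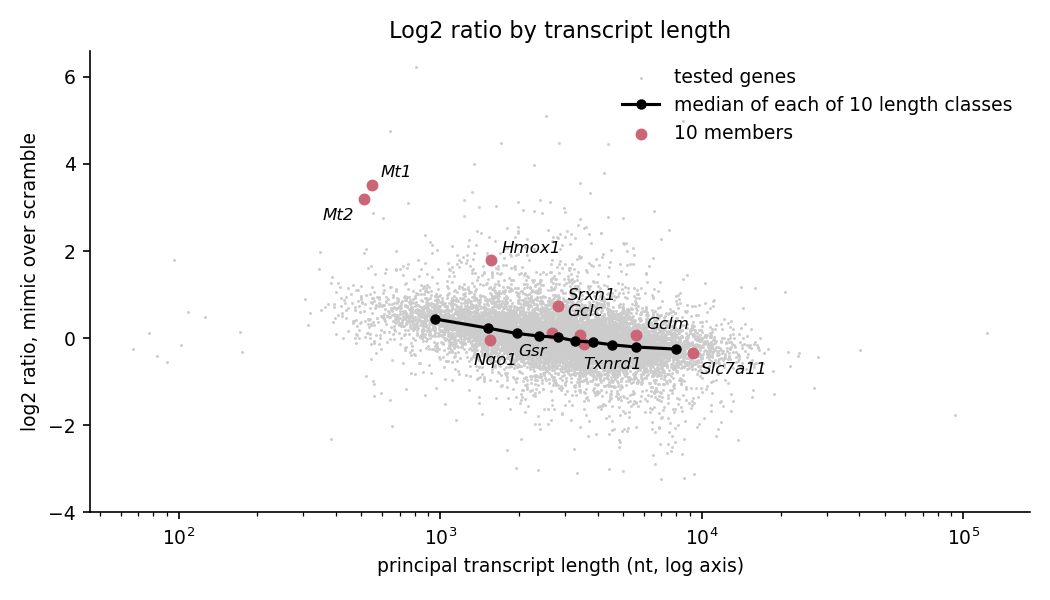
Log2 ratio of mimic to scramble against the length of the main transcript (nucleotides, log axis) for the tested genes with a length (grey), with the median of each length class (black) and the 10 members (red). The medians run from 0.44 in the shortest class to -0.25 in the longest, and Mt1 and Mt2 stand well above the shortest class.

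Heme oxygenase 1, encoded by Hmox1 on chromosome 8 (75093621 to 75100589, plus strand), breaks heme down to biliverdin, carbon monoxide and iron. Hmox1 had 6101 reads with mimic and 1749 with scramble, 327 and 93.7 CPM. It was higher in the mimic library by 3.49-fold (95% interval 3.31 to 3.68), a log2 ratio of 1.8 that 119 tested genes exceeded. Among the 1042 genes with at least as many reads as Hmox1, 5 had a larger log2 ratio, among them Mt1 and Mt2. Hmox2, the constitutive heme oxygenase, had 982 and 918 reads (log2 ratio 0.10, 95% interval -0.03 to 0.23). There were 6.21 Hmox1 reads per Hmox2 read in the mimic library (95% interval 5.81 to 6.65) and 1.91 in the scramble library (95% interval 1.76 to 2.07). The Hmox1 transcript has 1569 nucleotides, and less the median of its length class its log2 ratio was 1.57.

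Srxn1 encodes sulfiredoxin, which repairs over-oxidised peroxiredoxins, and had the next largest difference. It had 2084 reads with mimic and 1252 with scramble, 112 and 67.1 CPM. The mimic library was higher by 1.66-fold (95% interval 1.55 to 1.79), short of 2-fold, and 952 tested genes had a larger log2 ratio than its 0.73. Txnrd1, the cytosolic thioredoxin reductase of the same redox relay, went slightly the other way with 2067 and 2266 reads (log2 ratio -0.13, 95% interval -0.22 to -0.05). This interval leaves out 0 but the difference was small beside the range of the tested genes.

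The 4 members that make or recycle glutathione were close in both libraries. Gclc encodes the catalytic subunit of glutamate-cysteine ligase and had 580 reads with mimic and 552 with scramble. Its partner Gclm, the modifier subunit, had 249 and 236. The log2 ratios of the subunits were 0.07 (95% interval -0.10 to 0.24) and 0.08 (95% interval -0.19 to 0.34), and there were 2.33 Gclc reads per Gclm read with mimic and 2.34 with scramble. Gsr, glutathione reductase, had 1962 and 1816 reads (log2 ratio 0.11, 95% interval 0.02 to 0.20). Slc7a11, the cystine importer that supplies cysteine for glutathione, had the fewest reads with 81 and 103 reads (log2 ratio -0.35, 95% interval -0.79 to 0.09). At this depth a difference was not detectable for Gclc, Gclm or Slc7a11, whose intervals include 0. Gclc and Slc7a11, the members with coding seed matches, had log2 ratios on opposite sides of 0.

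Nqo1, the quinone reductase often used as the reference NRF2 target, had 253 reads with mimic and 259 with scramble. Its log2 ratio was -0.03 (95% interval -0.29 to 0.22), so the interval leaves out a difference of 2-fold in either direction for counting error. Nqo1 and Hmox1 have transcripts of almost the same length, 1553 and 1569 nucleotides, and fell in the same length class, with ratios on either side of its median of 0.23.

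**Figure D3:**
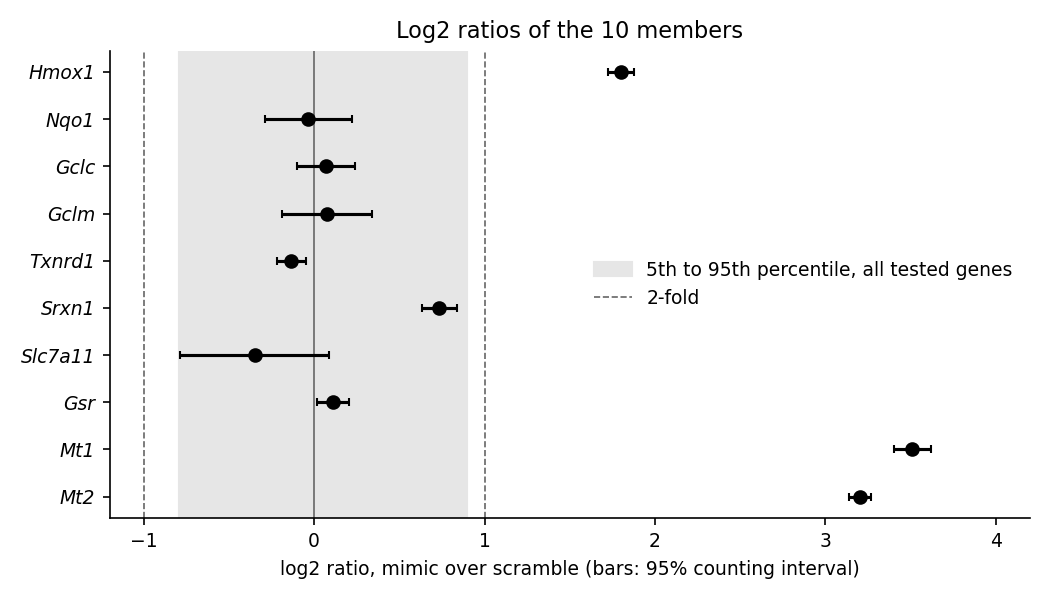
Log2 ratio of mimic to scramble for the 10 members with exact 95% counting intervals (x axis), the 5th to 95th percentile of all tested genes in grey and 2-fold as dashed lines. Mt1, Mt2 and Hmox1 lie past 2-fold, Srxn1 lies inside the grey range at 0.73, and the other 6 lie between -0.35 and 0.11.

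**Figure D4:**
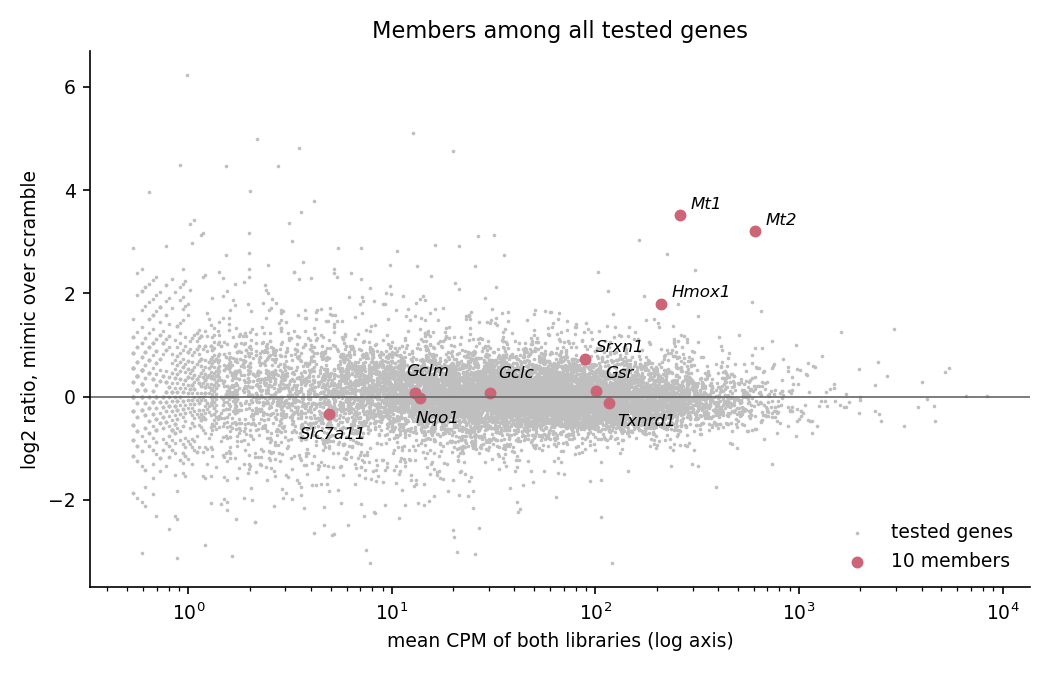
Mean CPM of both libraries (x axis, log) and log2 ratio (y axis) of all tested genes in grey and the 10 members in red. At their read numbers, Mt1 and Mt2 lie above every grey point to their right.

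Levels per length (CPM per kb of the main transcript) gave the order of the members within each library. In the scramble library Mt2 was highest at 233, followed by Mt1 at 76.2 and Hmox1 at 59.7. Gsr at 36.4, Txnrd1 at 34.4 and Srxn1 at 23.8 came next, and the counting intervals of Gsr and Txnrd1 overlapped. Nqo1 at 8.93 and Gclc at 8.64 were not separable, and Gclm at 2.26 and Slc7a11 at 0.598 closed the list. In the mimic library the first 3 were the same at 2144, 869 and 208, while Srxn1 at 39.7 stood level with Gsr at 39.3 and above Txnrd1 at 31.3. The remaining members had the values 9.07 for Gclc, 8.72 for Nqo1, 2.39 for Gclm and 0.47 for Slc7a11.

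Promoter sequences of RefSeq (GRCm38.p6, from 250 bases before to 50 after a gene start) were given for 7 of the 10 members, namely Nqo1, Gclm, Txnrd1, Srxn1, Slc7a11, Mt1 and Mt2. They were searched on both strands for the metal response element core, TGCACNC or TGCGCNC, and for the antioxidant response element core, TGACNNNGC or TGAGNNNGC. Mt1 had 3 metal response cores, starting at positions -23, 3 and 21 from the RefSeq gene start, and no antioxidant core in this window. Sequence beyond the window was not searched. Mt2 had 4 metal response cores, at -223, -128, -50 and 5, and 1 antioxidant core at -79. The RefSeq start of Mt2, from which these positions count, lies upstream of the GENCODE start given above. At least 3 metal response cores occurred in 1.97% of all 32851 promoters of this length and at least 4 in 0.517%. Gclm, near parity in the counts, also had 3 metal response cores, at -138, -72 and 28, and 1 antioxidant core at -134 that overlaps the first of them. Srxn1 had 3 antioxidant cores, at -158, -45 and 29, and 1 metal response core at -19. At least 3 antioxidant cores occurred in 0.63% of all promoters and at least 1 in 27.8%. Slc7a11 and 1 of the Txnrd1 promoters had 1 antioxidant core each, and Nqo1 had neither motif in this window. The 4 promoters with several cores are shown with the cores in capitals, those of Mt1 (chr8:94178839-94179138, plus strand), Mt2 (chr8:94172368-94172667, plus strand), Gclm (chr3:122245307-122245606, plus strand) and Srxn1 (chr2:152105274-152105573, plus strand). A match of letters does not show that a factor binds there.

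Mt1 promoter: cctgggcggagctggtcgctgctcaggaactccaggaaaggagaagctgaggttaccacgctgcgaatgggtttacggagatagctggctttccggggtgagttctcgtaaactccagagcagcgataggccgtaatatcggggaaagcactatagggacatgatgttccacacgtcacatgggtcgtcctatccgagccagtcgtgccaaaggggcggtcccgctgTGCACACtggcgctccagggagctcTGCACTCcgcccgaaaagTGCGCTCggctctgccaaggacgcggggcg
Mt2 promoter: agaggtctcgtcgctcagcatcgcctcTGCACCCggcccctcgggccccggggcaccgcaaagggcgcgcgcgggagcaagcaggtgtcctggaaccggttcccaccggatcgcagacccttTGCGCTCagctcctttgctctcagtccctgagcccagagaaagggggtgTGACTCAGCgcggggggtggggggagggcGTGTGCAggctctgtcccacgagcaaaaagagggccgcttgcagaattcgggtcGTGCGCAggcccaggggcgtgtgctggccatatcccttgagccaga
Gclm promoter: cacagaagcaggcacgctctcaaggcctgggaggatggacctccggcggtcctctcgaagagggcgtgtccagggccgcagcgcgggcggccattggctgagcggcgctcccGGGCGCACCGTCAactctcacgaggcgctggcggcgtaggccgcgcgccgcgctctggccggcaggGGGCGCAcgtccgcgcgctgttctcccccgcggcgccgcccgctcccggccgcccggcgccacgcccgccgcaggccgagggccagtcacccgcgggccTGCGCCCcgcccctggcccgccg
Srxn1 promoter: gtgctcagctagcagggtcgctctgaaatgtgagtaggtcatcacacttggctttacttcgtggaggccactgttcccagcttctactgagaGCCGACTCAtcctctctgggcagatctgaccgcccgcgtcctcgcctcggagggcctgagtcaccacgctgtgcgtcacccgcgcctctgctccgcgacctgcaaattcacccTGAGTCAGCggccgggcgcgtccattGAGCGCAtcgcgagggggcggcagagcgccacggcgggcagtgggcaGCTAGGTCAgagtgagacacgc

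Of 12 regulators of NRF2 listed, 1 was higher by 2-fold and 0 were lower, beside 3.96% and 2.95% of all tested genes. Their median log2 ratio was 0.10, and less the medians of the length classes it was 0.23. Nfe2l2, which encodes NRF2, had 2503 reads with mimic and 2535 with scramble (log2 ratio -0.02, 95% interval -0.10 to 0.06). Its inhibitor Keap1 had a log2 ratio of 0.13, and the ligase components Cul3, Rbx1 and Btrc had 0.12, 0.48 and -0.15. The repressors Bach1 and Bach2 had 0.08 and -0.18, and the related factor Nfe2l1 had 0.35. Among the small MAF proteins, Maff was the gene past 2-fold, with 566 and 254 reads (log2 ratio 1.15, 95% interval 0.94 to 1.37). Mafg and Mafk were lower in the mimic library, with log2 ratios of -0.37 each. Sqstm1, which encodes the autophagy receptor p62 that binds KEAP1, had the most reads of this list, 12838 and 9835 (log2 ratio 0.38).

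Of 46 further NRF2 targets listed, 35 were tested, 1 was higher by 2-fold and 0 were lower, near the 3.96% and 2.95% of all tested genes. Their median log2 ratio was 0.26, and less the median of each gene's length class it was 0.05, with 0 genes past 2-fold. The gene past 2-fold was Mgst2, a microsomal glutathione transferase, with 154 and 66 reads and a short transcript of 603 nucleotides (log2 ratio 1.22, 0.78 less the median of its class). Fth1, the ferritin heavy chain, had the most reads, 56349 and 35277 (log2 ratio 0.68). Of 29 tested enzymes of glutathione, thioredoxin and peroxide metabolism, 1 was higher by 2-fold and 0 were lower, again near the shares of 3.96% and 2.95% over all tested genes. Their median log2 ratio was 0.12, and less the medians of the length classes it was 0.025. That gene was Sod2, the mitochondrial superoxide dismutase, with 3196 reads with mimic and 1434 with scramble (log2 ratio 1.16, 95% interval 1.07 to 1.25). Txnip, the inhibitor of thioredoxin, had the most reads, 13178 and 16146 (log2 ratio -0.29).

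**Figure D5:**
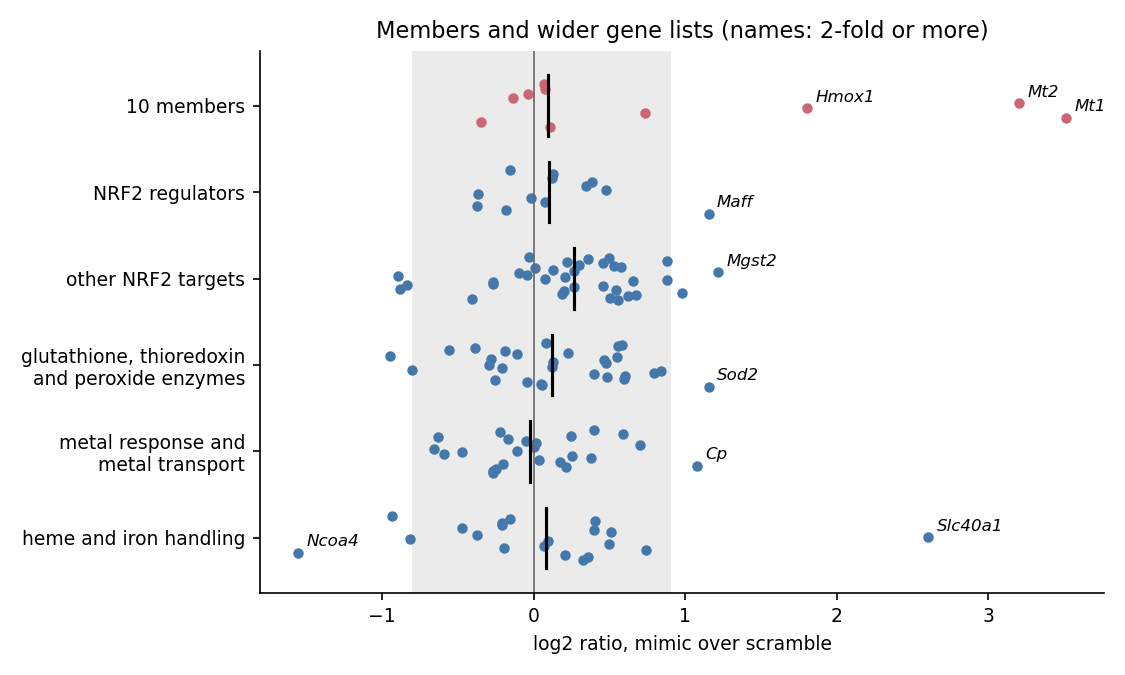
Log2 ratio of mimic to scramble (x axis) of the members (red) and of each tested gene in 5 wider lists (blue), with list medians as black bars and the 5th to 95th percentile of all tested genes in grey. The list medians lie between -0.02 and 0.26, and genes at 2-fold or more are named.

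Of 30 genes of metal sensing and transport listed, 24 were tested, 1 was higher by 2-fold and 0 were lower, beside 3.96% and 2.95% of all tested genes. The median log2 ratio of this list was -0.02, and less the medians of the length classes it was -0.0002. Mtf1, the zinc sensor, had 930 reads with mimic and 1399 with scramble (log2 ratio -0.59, 95% interval -0.71 to -0.47). Slc30a1, the zinc exporter known as a target of MTF1, had 25.2 and 29.4 CPM (log2 ratio -0.22, 95% interval -0.40 to -0.04). The zinc importer Slc39a10, known to be repressed through MTF1, had 173 and 199 reads (log2 ratio -0.20, 95% interval -0.50 to 0.10). Less the medians of their length classes, the log2 ratios were -0.34 for Mtf1, -0.02 for Slc30a1 and 0.0001 for Slc39a10. The other zinc exporters tested were Slc30a4 at -0.63, Slc30a5 at -0.66, Slc30a6 at 0.03, Slc30a7 at -0.25 and Slc30a9 at -0.27. After the same length step these exporters were at -0.43, -0.60, -0.08, -0.0005 and -0.07, in that order. Among the other zinc importers, Slc39a1 had the most reads of the list at 4695 and 4161 (log2 ratio 0.17). Slc39a3 had a log2 ratio of -0.11, Slc39a6 of -0.17, Slc39a7 of 0.40, Slc39a8 of -0.05, Slc39a9 of -0.47, Slc39a11 of -0.27, Slc39a13 of 0.22 and Slc39a14 of 0.38. For copper, the importers Slc31a1 and Slc31a2 had 0.01 and 0.25, the pump Atp7a had 0.59, and the chaperones Atox1 and Ccs had 0.70 and 0.25. Mtf2, a chromatin protein that shares only part of its name with MTF1, had 0.01. The gene past 2-fold was Cp, the copper-carrying ferroxidase ceruloplasmin, with 2823 and 1336 reads (log2 ratio 1.08, 95% interval 0.98 to 1.17). Slc30a2, Slc30a10, Slc39a4 and Atp7b had at most 8 reads over both libraries and were not tested.

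Heme and iron genes were listed because Hmox1 acts between them. Of 20 tested, 1 was higher by 2-fold and 1 was lower, beside 3.96% and 2.95% of all tested genes. The median log2 ratio was 0.08, and less the medians of the length classes it turned to -0.04. Slc40a1, the iron exporter ferroportin, had 118 reads with mimic and 19 with scramble (log2 ratio 2.60, 95% interval 1.93 to 3.42). Ncoa4, which delivers ferritin to autophagosomes, had 29 and 86 (log2 ratio -1.55, 95% interval -2.23 to -0.95). Both rest on few reads. Ireb2, the iron regulatory protein with the most reads of the list, had 4170 and 5774 (log2 ratio -0.47).

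The labelled cell type was checked against its markers. Of 13 Sertoli cell markers, 9 had more than 3 reads with mimic and 8 with scramble, and the list summed to 7266 and 5412 CPM. Vim, a gene of mesenchymal cells in general, made up 6503 and 4454 CPM of these sums, and Kitl most of the rest. Sox9, Gata4, Kitl and Vim were detected in both libraries, Amh had 5 reads in each, and Fshr and Krt18 were at 0. Leydig, germ cell and macrophage markers summed to between 1.55 and 7.39 CPM per list and library. Of the peritubular myoid markers only Acta2 was abundant, with 73076 reads with mimic and 101778 with scramble (log2 ratio -0.48), while Myh11, Cnn1 and Des had at most 17 reads in a library.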

How the data were processed

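Raw counts of reads, 1 per gene symbol, were deposited for 1 Ago2 IP library of mimic-transfected and 1 of scramble-transfected TM4 cells, without normalization. Per the labels, the submitters' processing notes name CASAVA 1.8.2, TopHat2 2.0.8b, HTSeq and the build mm9. Annotation, strandedness and read length are not given in the sources used here, and RIP used a Magna-RIP kit. The 5 summary rows stayed out of library sizes, and 52.7% (mimic) and 55.9% (scramble) of all entries were on genes.

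A gene was tested where both libraries together held at least 20 counts, and library sizes were scaled by TMM in edgeR 4.0.16 (R 4.3.3). The log2 ratio used a prior count of 0.5. Its 95% interval is the Clopper-Pearson interval for the share of a gene's reads found with mimic, and CPM intervals were exact Poisson intervals. Reads are not independent molecules. With 1 library per group edgeR's quasi-likelihood test had no residual degrees of freedom, so 2-fold stood in for a call. The script was tested on simulated data. Python 3.11.15 with scipy 1.17.1 was used.

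Transcript lengths (the APPRIS principal transcript), coordinates and seed matches came from GENCODE M21 on GRCm38, matched by symbol or RefSeq synonym for 99.1% of tested genes. No mm9 coordinates were used. Members, gene lists and tests were chosen with earlier results of these data known. The genes named were all members, all NRF2 regulators and metal response genes, and from each wider list the gene with the most reads and genes past 2-fold whose interval leaves out a ratio of 1.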

Additional observations from a re-analysis of the deposited data

Results flagged for a closer look

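Reads left out of the gene counts because they aligned to several places or overlapped several genes were flagged, since no comparison uses them and their shares were larger with mimic. The share outside annotated genes was smaller, 6.84% with mimic and 7.89% with scramble. Alignments to more than one place were 39.8% of all entries with mimic and 35.6% with scramble. Reads overlapping more than one gene were 0.653% and 0.585%. How many of either belong to the 10 members cannot be read from the counts. In the main transcripts of the members, Gclm and Slc7a11 shared 0.776% and 0.752% of their stretches of 50 nucleotides with transcripts of other genes, and the other 8 shared none.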

How the results depend on the processing

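Over 20 results and 9 alternatives there were 144 values, of which 133 stayed within the counting interval of the reported value (for list medians, within the medians of the members' interval bounds) or, for counts of genes, within 1.5 times of it. The other 11 moved and 0 reversed. With total counts, DESeq2 1.42.0 size factors or the upper quartile in place of TMM, and with prior counts of 1 or 5, every value stayed. Less the median of the same length class, the log2 ratio was 1.57 for Hmox1, 3.07 for Mt1 and 2.76 for Mt2, and the list medians were 0.23 for the NRF2 regulators and 0.052 for the other NRF2 targets. The number of members past 2-fold was 3 higher and 0 lower under all scalings, filters and prior counts run, and 4 and 0 at 1.5-fold, where Srxn1 joined. Without a count filter 1686 genes were higher and 1383 lower, with at least 200 counts 238 and 185, and at 1.5-fold 1420 and 1089. Slc7a11 was left out at 200 counts.

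No paired analysis was possible because each group has 1 library, and leaving out a library would leave no comparison. Depth limits Slc7a11 most, with 81 and 103 reads.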

Other observations

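Beside Hmox1 and ferroportin, some other iron genes are named here, picked after their values were seen. The heme and iron list as a whole had a median log2 ratio of 0.08, or -0.04 after the length step. Of its 20 tested genes, 11 were above 0. Some lay nearer to 0 than the genes picked, such as Slc11a2 and Fech at -0.21 and Alas1 at -0.16. The ferritin light chain gene Ftl1 had 17044 reads with mimic and 11062 with scramble. Its log2 ratio of 0.62 lay inside the 5th to 95th percentile of all tested genes, -0.79 to 0.90. Tfrc, the transferrin receptor that imports iron, had 456 and 870 reads (log2 ratio -0.93, 95% interval -1.10 to -0.77). Aco1, which encodes the iron regulatory protein IRP1, had 1397 and 2463 (log2 ratio -0.82). Less the median of its length class, the log2 ratio was 0.18 for Ftl1, 0.44 for Fth1, -0.78 for Tfrc and -0.73 for Aco1. Each of these values lay nearer to 0 after that step. None of these genes reached 2-fold, and no explanation was tested.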
